A study of Mus musculus with 8 samples.

Results

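The choroid plexus epithelium is described here by 37 genes listed by name as characteristic of it. Of these, 36 had a probe that could be named through a RefSeq accession, out of 20646 named genes on the array. All 36 were among the 15085 named genes with a probe bright enough to test. The exception was *Mfrp*, a frizzled-related membrane protein, for which no probe carried its RefSeq accession. Where several probes measured a gene, the one brightest in the sample channel was used.

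The samples were hippocampi of male Muta Mouse animals at 9 weeks of age, a transgenic line in which every mouse of both groups carries a bacterial *lacZ* reporter for mutation assays. Control mice received the olive oil vehicle, a dose of 0 mg BaP/kg bw. The BaP-exposed mice received benzo[*a*]pyrene, a polycyclic aromatic hydrocarbon, by oral gavage on 3 days, at a daily dose of 70 mg/kg bw, and tissue was taken 24 hr after the last dose. Each group had 5 animals, of which 4 Control mice and 4 BaP-exposed mice were arrayed, each on an array of its own. Hippocampal RNA was labeled with Cy5 and a universal mouse reference RNA with Cy3, with no dye swap. A value is a log2 ratio of Cy5 over Cy3 unless stated otherwise, so 1 unit is a 2-fold difference, and its zero point differs from gene to gene.

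The choroid plexus is a folded epithelium with a vascular core that hangs in the brain ventricles and secretes cerebrospinal fluid. Its cells carry carbonic anhydrases, bicarbonate and sodium transporters, potassium channels and aquaporin for that secretion, are sealed by tight junctions, and release carrier proteins such as transthyretin. The plexus of the lateral ventricle lies next to the hippocampus, and neurons and glia of the hippocampus do not make most of these products. The sources used here do not say whether choroid plexus was removed at dissection.

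For 4 of the 8 mice, Control 3, Control 4, BaP 3 and BaP 4, the sample title and the source name give opposite groups. Groups here follow the titles, with which the animals' own ID numbers also sort. All 8 arrays lay on 1 slide in 2 rows, and the 4 mice in conflict were those of the second row, so labels in conflict and slide row cannot be told apart. Results are therefore given also for each row alone. The arrays had 56.6 to 67.4% of spots above background in Cy5 and 0 saturated spots, and Control 1 had 1483 outlier spots against 310 to 371 on the others. The 10 hippocampal neuron genes tested, led by *Snap25*, *Rbfox3* and *Wfs1*, had mean log2 ratios of 2.79 to 2.94 in Control and 2.78 to 3.32 in BaP mice.

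All 36 genes tested were higher on average in the BaP-exposed mice, but in none did the difference pass the test against the spread between mice of the same group. The median log2 fold change was 0.81, against -0.0044 over all 32598 probes tested, of which 48.8% were higher. Differences were called where the adjusted p (limma, Benjamini-Hochberg over all probes) was at most 0.05 and the fold at least 1.5. By this rule 0 of 36 genes passed, beside 0.0092% of all probes. Their adjusted p ranged from 0.595 to 0.983. At an unadjusted p of 0.05, 0 of 36 passed and 8.77% of all probes did. Control and BaP mice overlapped in every gene, where 5.06% of all probes had no overlap. The exact 2-sided permutation p ranged from 0.171 to 0.971, and the smallest p that the 70 assignments of 4 against 4 mice allow is 0.0286.

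By size alone, the fold change was at least 1.5 in 28 of 36, beside 0.681% of probes higher by that much. Of the 144 named genes that were higher by 1.5-fold, 28 (19.4%) were on the list. These counts hung on single mice. At that fold, 4 of 36 were counted without BaP 3 (0.282% of probes), 16 without Control 4 (0.512%), 18 without BaP 2 (0.426%) and 2 in the first slide row alone (0.899%), whereas without BaP 1 there were 33 (1.27%). With all 8 mice, in 30 of the 36 the difference between groups was smaller than the pooled SD within groups.

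The main feature of these genes was their spread between mice of the same treatment. Their median pooled within-group SD was 0.99 log2 units (range 0.18 to 1.88), against 0.15 over all genes tested. Of the 36, 25 lay above the 99th percentile of all genes (0.72), a region that held 151 genes, and 20 were among the 50 genes with the highest SD. The median SD was 0.72 in Control and 1.19 in BaP mice, where all genes had 0.15 and 0.14. Both groups varied, the untreated mice included, and the difference in SD between the groups was not tested. The higher value in BaP mice depended on BaP 1, without which it was 0.50, below that of the Control mice. Without another BaP mouse it was 1.23 to 1.44, and without 1 Control mouse the Control value was 0.54 to 0.82. From the lowest to the highest of 8 mice, the range was 0.49 in *Krt8* to 5.17 in *Kcnj13*, with a median of 2.80 (6.96-fold).

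The mice came in a similar order across the genes. Averaged over the 34 genes with a value on every array, the log2 ratio was lowest in BaP 1 at 0.44, followed by Control 4 at 0.73 and Control 2 at 1.06. Control 1 had 1.88, Control 3 had 2.17 and BaP 4 had 2.29. The highest were BaP 2 at 2.87 and BaP 3 at 3.26. The lowest and the highest mice thus both received BaP, and the Control mean of 1.46 ± 0.68 (SD, n = 4) and the BaP mean of 2.21 ± 1.25 (SD, n = 4) differed by 0.75, less than their pooled SD of 1.01.

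**Figure D1:**
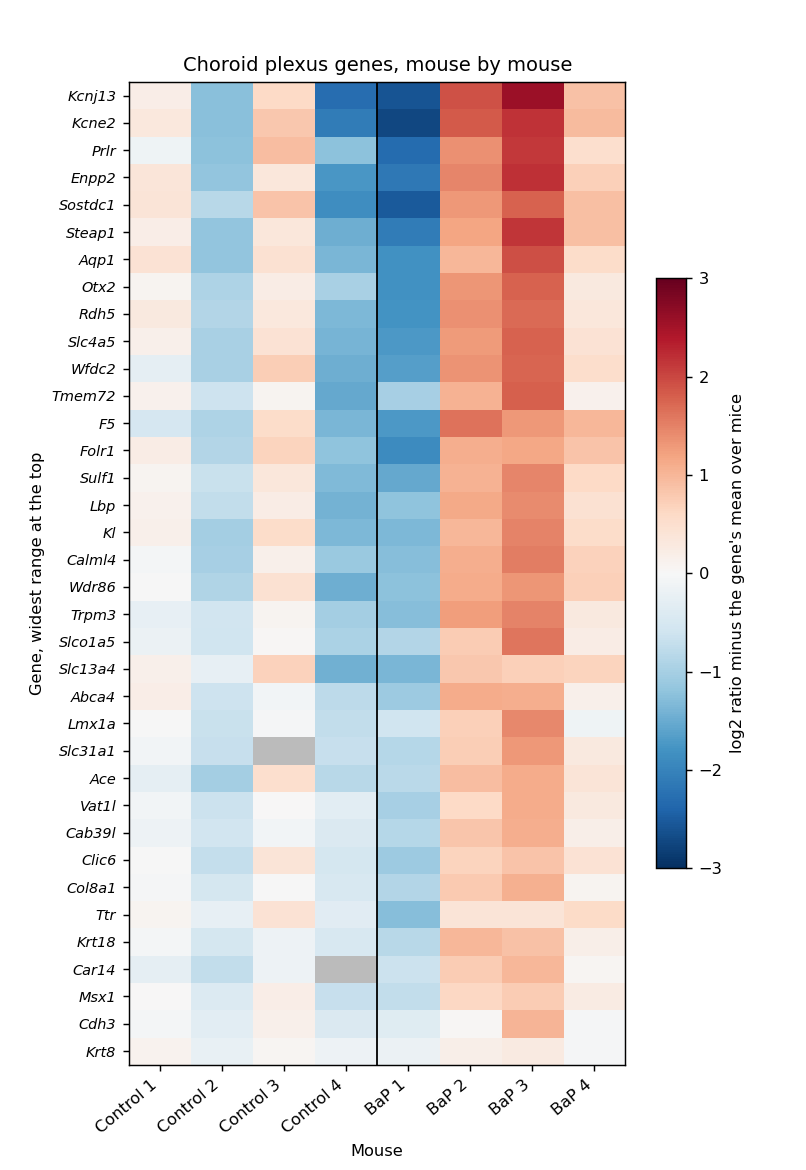
Log2 ratio of each choroid plexus gene (rows, ordered by range) in each of the 8 mice (columns), as the difference from the gene's mean over mice; red is higher, blue lower and gray a missing value. BaP 1, Control 4 and Control 2 are blue in nearly every row, while BaP 2 and BaP 3 are red.

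Gene by gene, a few mice supplied the extremes. BaP 1 was the lowest mouse in 26 genes, Control 4 in 7 and Control 2 in 3. BaP 3 was the highest in 31, BaP 2 in 4 and BaP 4 in 1. BaP 1 lay below the Control mean in all 36, whereas BaP 2, BaP 3 and BaP 4 lay above it in all 36. Among the untreated mice, Control 1 and Control 3 exceeded Control 2 and Control 4 in all 34 genes with a value in each Control mouse. The correlation between a gene's deviations from its group means and the mean deviation of the others had a median of 0.977, and exceeded 0.9 in 35 of 36. Over the 561 pairs of genes the median r was 0.949 and the lowest 0.621. These are correlations over the same 8 arrays and describe the data without a test. In bulk tissue such as this, fewer cells of a type and less RNA per cell cannot be told apart.

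Of the secreted proteins, 6 of 6 were higher in BaP mice, the median log2 fold change being 0.95, and 0 passed. *Enpp2* encodes autotaxin, the secreted enzyme that makes lysophosphatidic acid. Its log2 ratio was 4.69, 3.14, 4.67 and 2.57 in Control 1 to 4 and 2.18, 5.78, 6.52 and 5.03 in BaP 1 to 4, a 20.3-fold range. BaP 1 lay below and the other BaP mice above all Control mice, and the log2 fold change was 1.11 (SE 0.84, adjusted p = 0.705). *F5*, coagulation factor V, had 1.89, 1.47, 2.94 and 1.02 in the Control mice and 0.67, 4.01, 3.69 and 3.39 in the BaP mice. It showed the same split, with a log2 fold change of 1.11 (SE 0.67, adjusted p = 0.648). *Wfdc2*, a whey acidic protein-type protease inhibitor homolog, had 1.51, 0.83, 2.53 and 0.32 in Control and 0.15, 3.15, 3.53 and 2.31 in BaP mice. In *Wfdc2*, BaP 4 fell within the Control range, and the log2 fold change was 0.98 (SE 0.69, adjusted p = 0.685).

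*Lbp*, the lipopolysaccharide-binding protein, had log2 ratios of 0.35, -0.52, 0.45 and -1.20 in Control and -0.98, 1.35, 1.65 and 0.68 in BaP mice. Here Control 4, not BaP 1, was the lowest mouse, and the log2 fold change was 0.91 (SE 0.55, adjusted p = 0.648). *Sostdc1*, a secreted antagonist of BMP and Wnt signaling, ranged over 19.8-fold with a log2 fold change of 0.73. *Ttr*, transthyretin, the carrier of thyroid hormone and retinol and the most abundant product of this epithelium, had 7.26, 6.94, 7.63 and 6.84 in Control and 5.92, 7.57, 7.58 and 7.75 in BaP mice. Its log2 fold change of 0.04 (SE 0.36, adjusted p = 0.983) was the smallest of the 36.

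In *Ttr* the reference channel moved with the sample channel, so its range differed between the ratio (3.56-fold) and Cy5 alone. Its Cy5 intensity was 104971, 37026, 123138 and 13942 in Control 1 to 4 and 10409, 218680, 266449 and 139152 in BaP 1 to 4, a 25.6-fold range. The Cy3 intensity of the same spots was 1330, 602, 1402 and 284 in Control and 208, 3346, 2427 and 1521 in BaP mice, a 16.1-fold range, although every array received the same reference RNA. The correlation of the normalized log2 channels over the 8 arrays was 0.986. In Cy5 alone the log2 fold change of *Ttr* was 0.79 (SE 1.05, adjusted p = 0.871), with a pooled SD of 1.87 against 0.66 for the ratio.

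The Cy3 signal varied by an SD over 0.5 log2 units in 5 of the 36 genes, beside 1.29% of all genes tested. The other four were *Clic6* (r = 0.988 between channels), *Slc13a4* (r = 0.971), *Folr1* (r = 0.967) and *Sostdc1* (r = 0.909). Their Cy5 range was 19.1-fold in *Clic6*, 18.0-fold in *Slc13a4*, 24.4-fold in *Folr1* and 45.6-fold in *Sostdc1*. In Cy5 alone the log2 fold change was 1.19 (SE 0.84) in *Clic6*, 0.75 (SE 0.78) in *Slc13a4*, 1.22 (SE 0.94) in *Folr1* and 1.15 (SE 1.11) in *Sostdc1*, against 0.43, 0.42, 0.61 and 0.73 for the ratio. For the list as a whole the median SD over 8 arrays was 1.2 in Cy5 and 0.14 in Cy3, so in most of these genes the variation lay in the Cy5 channel. Cy5 alone also called 0 of 36, with a lowest adjusted p of 0.64. Below that SD limit the channels also moved together in some genes, such as *Kl* (r = 0.904) and *Ace* (r = 0.911). In others, such as *Enpp2* (r = -0.466), they did not. In *Kl*, Cy5 alone gave a log2 fold change of 1.23, against 0.84 for the ratio. The source of the Cy3 variation was not tested, nor which of the ratio and Cy5 alone is nearer to the RNA level in these genes.

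**Figure D2:**
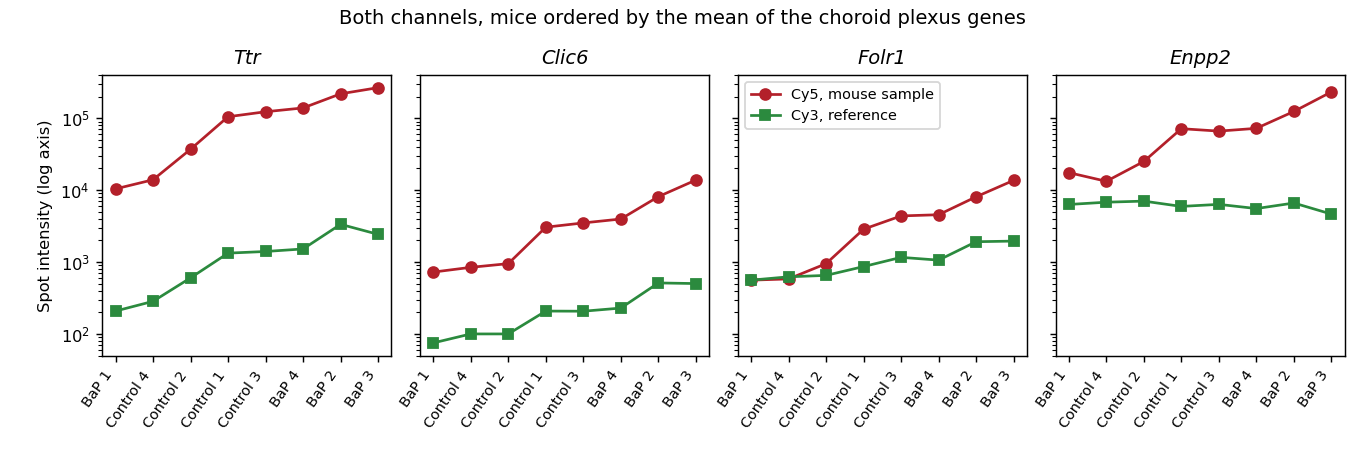
Spot intensity (log axis) of *Ttr*, *Clic6*, *Folr1* and *Enpp2* on each array, in Cy5 (mouse sample, circles) and Cy3 (reference, squares), with mice ordered by the mean of the choroid plexus genes. Cy5 is higher in BaP 3 than in BaP 1 in each gene. Cy3 is too in *Ttr*, *Clic6* and *Folr1* but not in *Enpp2*, where it ranged over 1.52-fold.

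Of the ion channels, their subunits and the water channel, 5 of 5 were higher in BaP mice (median log2 fold change 0.88) and 0 passed. *Kcnj13*, the inward-rectifier potassium channel Kir7.1 of the apical membrane, had the widest range of the list at 36.0-fold. Its log2 ratio was 4.21, 2.74, 4.59 and 1.72 in the Control mice and 1.40, 5.90, 6.56 and 4.89 in the BaP mice. Control 4 and BaP 1 were the lowest mice, so the groups overlapped and the log2 fold change of 1.37 had an SE of 1.02 (adjusted p = 0.702). *Kcne2*, an accessory subunit of potassium channels, had 4.48, 2.91, 4.96 and 2.07 in Control and 1.44, 5.99, 6.34 and 5.10 in BaP mice. Its log2 fold change was 1.11 (SE 1.01, adjusted p = 0.759), and the mice came in the same order as in *Kcnj13*.

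*Trpm3*, a cation channel of the transient receptor potential family, had log2 ratios of 2.22, 1.89, 2.55 and 1.45 in Control and 1.18, 3.73, 3.96 and 2.77 in BaP mice. The log2 fold change was 0.88 (SE 0.52, adjusted p = 0.644). *Aqp1*, the water channel of the apical membrane, had -1.57, -3.20, -1.55 and -3.38 in Control and -3.82, -1.01, -0.08 and -1.46 in BaP mice, a 13.4-fold range. Control 2, Control 4 and BaP 1 formed a low set in *Aqp1*, and its log2 fold change was 0.83 (SE 0.73, adjusted p = 0.750). *Clic6*, a chloride intracellular channel protein, had a log2 fold change of 0.43.

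**Figure D3:**
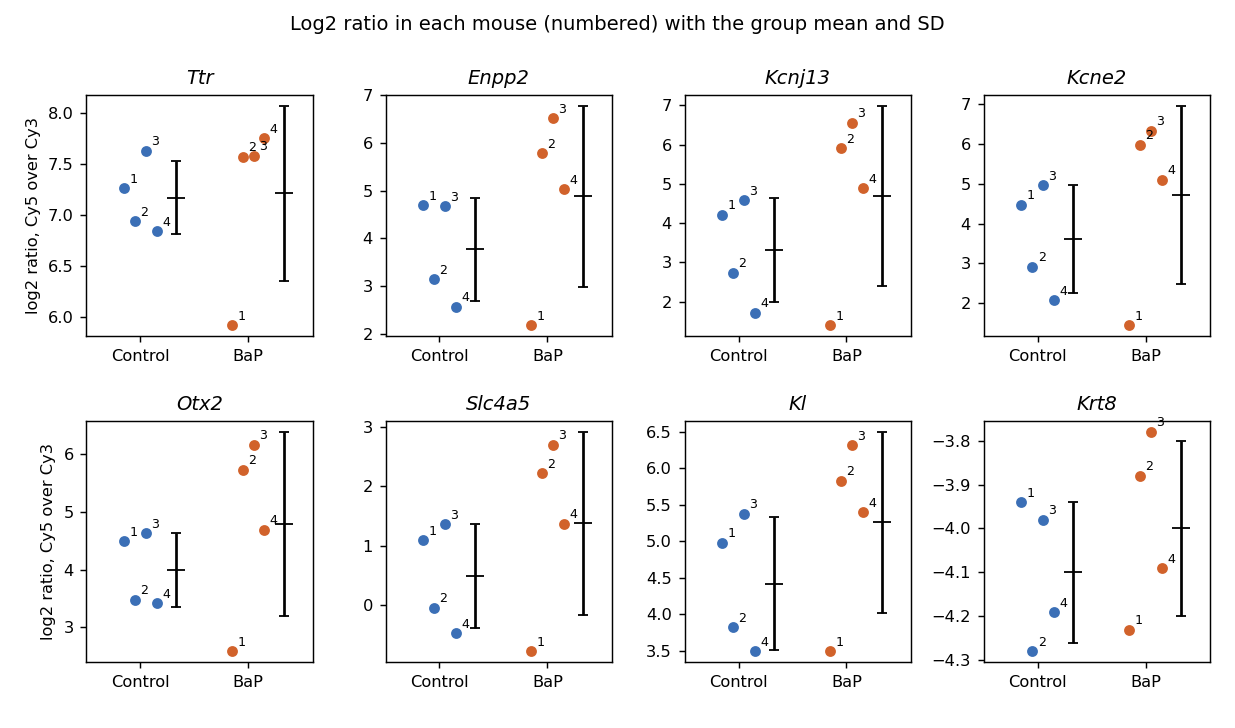
Log2 ratio of Cy5 over Cy3 in each mouse (points, numbered by replicate) for 8 choroid plexus genes of different roles, with the group mean and SD (bars, n = 4). BaP 1 sits at or near the bottom of every panel and the other BaP mice lie above the Control mean; vertical axes differ between panels.

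Among the transporters and metal or lipid handling genes, 6 of 6 were higher in BaP mice (median log2 fold change 0.85) and 0 passed. *Steap1*, a metalloreductase family member, had log2 ratios of -2.53, -3.91, -2.39 and -4.19 in Control and -4.81, -1.55, -0.57 and -1.83 in BaP mice. Its range was 18.9-fold and its log2 fold change 1.06 (SE 0.79, adjusted p = 0.702). *Slc4a5*, a sodium bicarbonate cotransporter, had 1.09, -0.04, 1.36 and -0.47 in Control and -0.78, 2.22, 2.70 and 1.37 in BaP mice. BaP 4 lay only just above Control 3 in *Slc4a5*, and the log2 fold change was 0.89 (SE 0.69, adjusted p = 0.709).

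The other transporters had smaller ranges. *Slc31a1*, the copper importer, had the lowest adjusted p of the list at 0.595, with a log2 fold change of 0.86 (SE 0.43) over 7 mice, since Control 3 had an outlier spot. *Slco1a5*, an organic anion transporter, had a log2 fold change of 0.85 and the lowest exact permutation p, 0.171. *Abca4*, a lipid transporter, had 0.64, and *Slc13a4*, a sulfate transporter, had 0.42.

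Of the receptors and co-receptors, 3 of 3 tested were higher in BaP mice and 0 passed. *Prlr*, the prolactin receptor, had the widest range of them at 21.4-fold, with log2 ratios of 3.70, 2.59, 4.76 and 2.59 in Control and 1.52, 5.19, 5.95 and 4.34 in BaP mice. Its log2 fold change was 0.84 (SE 0.85, adjusted p = 0.786). *Kl*, klotho, the co-receptor for fibroblast growth factor 23, also had 0.84 (SE 0.60, adjusted p = 0.688). *Folr1*, the folate receptor that carries folate into cerebrospinal fluid, had 0.61 (SE 0.66, adjusted p = 0.807).

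The 4 enzymes had a median log2 fold change of 0.79 and 0 passed. *Rdh5*, a retinol dehydrogenase, ranged over 11.2-fold and *Sulf1*, an extracellular sulfatase of heparan sulfate, over 8.05-fold. *Ace*, angiotensin-converting enzyme, had log2 ratios of 1.36, 0.61, 2.13 and 0.79 in Control and 0.82, 2.55, 2.73 and 2.0 in BaP mice, and here Control 2 was the lowest. *Car14*, a membrane-bound carbonic anhydrase, had 2.71, 2.25 and 2.83 in Control 1 to 3 and 2.35, 3.74, 3.98 and 3.05 in BaP mice, with no value for Control 4.

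The 3 transcription factors were higher in BaP mice by 0.44 to 0.79 and 0 passed. *Otx2*, a homeodomain factor needed to form and keep the choroid plexus, had log2 ratios of 4.49, 3.48, 4.63 and 3.42 in Control and 2.58, 5.73, 6.17 and 4.69 in BaP mice. BaP 1 stood below all other mice and BaP 4 hardly above Control 3, with a log2 fold change of 0.79 (SE 0.67, adjusted p = 0.740). *Lmx1a*, a LIM-homeodomain factor of the roof plate and cortical hem, had 0.72, and *Msx1*, another homeodomain factor, 0.44.

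OTX2 protein binds a bicoid-type core motif, TAATCC. The 250 bases upstream of the annotated starts were searched for these letters on both strands. RefSeq promoters of GRCm38.p6 were searched for 29 of the 37 genes, and *Ttr* was not among them. The motif occurred in 6 of the 29 (20.7%), namely *Abca4*, *Ace*, *Car14*, *Mfrp*, *Otx2* and *Vat1l*, against 1949 of 27025 genes overall (7.21%). Several starts of a gene were each searched, and one match sufficed. For the listed genes a chromosome was left out of the search, but not for the 27025 genes. The shares are therefore from sets that were not restricted alike. The match is a description of letters and not a binding site.

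Printed here are 3 of the windows with a match in genes described above, the window of *Otx2* itself, and that of *Kcnj13*, the gene of the widest range, in which TAATCC was not found. They lie at chr3:95904686-95904935, minus strand (*Car14*), chr3:122044210-122044459, plus strand (*Abca4*), chr11:105967698-105967947, plus strand (*Ace*), chr14:48665110-48665359, minus strand (*Otx2*, 1 of its annotated starts) and chr1:87394730-87394979, minus strand (*Kcnj13*). Each runs 5′ to 3′ on the gene's strand up to the base before its start, and capitals mark the motif, written GGATTA where it lies on the opposite strand.
*Car14*: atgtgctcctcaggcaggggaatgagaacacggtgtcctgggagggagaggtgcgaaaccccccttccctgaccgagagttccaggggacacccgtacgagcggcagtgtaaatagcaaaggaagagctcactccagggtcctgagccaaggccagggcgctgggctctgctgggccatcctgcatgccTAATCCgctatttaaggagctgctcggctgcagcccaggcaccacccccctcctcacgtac
*Abca4*: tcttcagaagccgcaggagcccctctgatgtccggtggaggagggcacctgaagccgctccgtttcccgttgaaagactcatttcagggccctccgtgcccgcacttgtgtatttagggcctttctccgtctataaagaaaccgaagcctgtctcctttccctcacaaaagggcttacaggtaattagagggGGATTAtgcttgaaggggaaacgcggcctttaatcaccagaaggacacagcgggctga
*Ace*: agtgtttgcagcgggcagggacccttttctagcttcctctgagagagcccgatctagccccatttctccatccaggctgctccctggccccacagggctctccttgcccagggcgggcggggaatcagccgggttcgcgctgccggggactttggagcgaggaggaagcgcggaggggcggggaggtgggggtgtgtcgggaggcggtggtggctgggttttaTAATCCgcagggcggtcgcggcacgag
*Otx2*: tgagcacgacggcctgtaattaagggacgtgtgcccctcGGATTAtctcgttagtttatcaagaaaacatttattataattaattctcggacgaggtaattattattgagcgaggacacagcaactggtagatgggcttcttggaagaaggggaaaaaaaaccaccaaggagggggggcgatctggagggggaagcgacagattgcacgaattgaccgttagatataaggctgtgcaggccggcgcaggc
*Kcnj13*: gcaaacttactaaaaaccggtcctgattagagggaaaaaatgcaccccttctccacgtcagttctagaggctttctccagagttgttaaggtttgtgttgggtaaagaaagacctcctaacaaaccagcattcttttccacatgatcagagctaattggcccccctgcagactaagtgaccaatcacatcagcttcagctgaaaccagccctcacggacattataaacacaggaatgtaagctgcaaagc
Among these windows the motif lies nearest to the start in *Ace*. The genes with a match did not share one size of range, since the log2 range over mice was 3.58 in *Otx2*, 2.22 in *Abca4*, 2.12 in *Ace* and 1.73 in *Car14*. It was 5.17 in *Kcnj13*, without the motif, and no comparison of ranges by motif was made.

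The keratins, adhesion and matrix genes varied least, with log2 fold changes of 0.10 to 0.60 and 0 of 4 passing. *Krt8*, a keratin of simple epithelia, had log2 ratios of -3.94, -4.28, -3.98 and -4.19 in Control and -4.23, -3.88, -3.78 and -4.09 in BaP mice. Its range of 1.41-fold was the narrowest of the list, and BaP 4 lay below Control 1 and Control 3. *Krt18*, its usual partner keratin, ranged over 3.52-fold with a log2 fold change of 0.60 (SE 0.34, adjusted p = 0.634). *Cdh3*, P-cadherin, and *Col8a1*, a short-chain collagen, had log2 fold changes of 0.34 and 0.54. Both were dim, *Cdh3* being above background in 1 of the Control mice and *Col8a1* in 2.

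Of the 5 other proteins, 5 were higher and 0 passed. *Calml4*, a calmodulin-like protein, had log2 ratios of 1.48, 0.56, 1.70 and 0.43 in Control and 0.28, 2.63, 3.09 and 2.23 in BaP mice, with a log2 fold change of 1.02 (SE 0.54, adjusted p = 0.610). *Tmem72*, a transmembrane protein, had 1.5, 0.74, 1.44 and -0.17 in Control and 0.36, 2.41, 3.16 and 1.5 in BaP mice, with a log2 fold change of 0.98 (SE 0.56, adjusted p = 0.634). In *Tmem72*, BaP 4 was level with Control 1. *Wdr86*, a WD-repeat protein, had 3.15, 2.26, 3.62 and 1.70 in Control and 1.92, 4.27, 4.49 and 3.87 in BaP mice, with a log2 fold change of 0.95 (SE 0.57, adjusted p = 0.644). *Cab39l*, a scaffold of the LKB1 and related kinases, and *Vat1l* had 0.62 and 0.51.

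A total of 31 of the 36 genes were above background on all 8 arrays. The exceptions were *Cdh3* on 4 arrays (1 Control and 3 BaP), *Col8a1* and *Slco1a5* on 5 (2 Control and 3 BaP), *Tmem72* on 6 (3 in each group) and *Abca4* on 7 (4 Control and 3 BaP). By mouse, 31 of the genes were above background in BaP 1, 32 in Control 4 and 33 in Control 2, 35 in Control 1, and 36 in Control 3 and in BaP 2 to 4. For 11 genes several probes were tested, and each probe was higher in BaP mice.

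**Figure D4:**
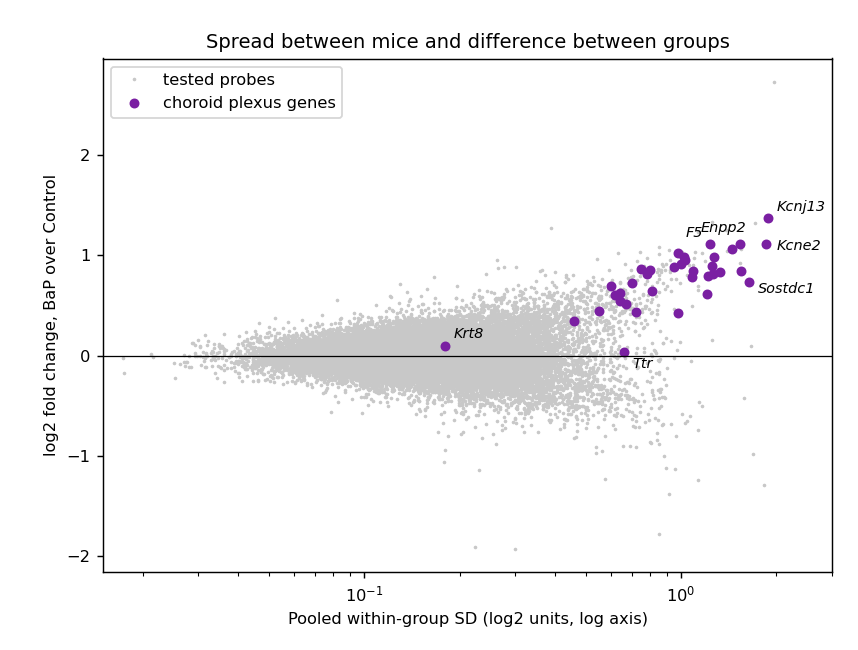
Log2 fold change of BaP over Control against the pooled within-group SD (log axis) for every tested probe (gray) and for the 36 choroid plexus genes (purple). The choroid plexus genes lie at high SD, mostly above 0.72, and all above a log2 fold change of 0.

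The size of the difference depended on single mice, in both directions. Without BaP 3, the highest mouse, the median log2 fold change was 0.41 in place of 0.81, with 0 genes at an unadjusted p of 0.05 (6.01% of all probes). It was 0.58 without BaP 2 or without Control 4 and 0.61 without Control 2. Without BaP 1, the lowest mouse, it was 1.43 and the median SD was 0.65. In that last setting 34 of 36 genes had an unadjusted p of at most 0.05, beside 10.7% of all probes, and 26 had all 3 BaP mice above all 4 Control mice, beside 5.22%. Still 0 passed the adjusted threshold, the lowest adjusted p being 0.252 by limma (0.0092% of probes passed). *Kcnj13* had a log2 fold change of 2.47 (SE 0.65, adjusted p = 0.279) and *F5* of 1.87 (SE 0.38, adjusted p = 0.252) without that mouse. BaP 1 was not left out for any technical mark, since its outlier spots and share of spots above background lay within those of the other arrays. Its place as the lowest mouse comes from these same genes, which are correlated over the mice. The counts without BaP 1 therefore describe the data and are not a test of the list.

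Within the first row of the slide (Control 1, Control 2, BaP 1 and BaP 2), whose labels agree, the median log2 fold change was 0.20, with 31 genes higher and 5 lower. The 5 were *Sostdc1* at -0.39, *Ttr* at -0.35, *Slc13a4* at -0.23, *Folr1* at -0.07 and *Aqp1* at -0.03. In that row 0 genes were without overlap and higher, beside 21.0% of probes, and 0 had an unadjusted p of at most 0.05, beside 6.95%. Within the second row (Control 3, Control 4, BaP 3 and BaP 4), all 36 were higher with a median of 1.41. There 28 had no overlap, beside 16.2% of probes higher without overlap among 2 against 2 mice, and 20 had an unadjusted p of at most 0.05, beside 6.14%. In neither row did any gene pass the adjusted threshold. If the source names were right instead of the titles, all 36 would be lower in BaP mice, with a median of -0.55 and a lowest adjusted p of 0.918. Genes of other lists differed by title within both rows. *Hbb-bs*, a beta globin, had log2 ratios of 5.46, 5.05, 5.13 and 5.08 in Control 1 to 4 and 3.54, 2.95, 3.23 and 3.40 in BaP 1 to 4. *Cldn5*, an endothelial tight junction protein, had 5.37, 5.37, 5.39 and 5.25 in Control and 4.85, 4.87, 4.71 and 4.69 in BaP mice (log2 fold change -0.57, adjusted p = 0.138). The endothelial list it belongs to did not share that direction, with 8 of 12 genes higher in BaP mice and a median log2 fold change of 0.10. In both genes, and in *Hba-a1* and *Alas2*, the mice of the second row titled BaP lay on the same side as BaP 1 and BaP 2 of the first row, and those titled Control with Control 1 and Control 2. These genes were chosen after their values were seen, and groups were not assigned from them.

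Other genes of the same epithelium mostly followed the order of the mice. From a list of 25 such genes, 24 were tested and *Slc4a10* was not. All 24 were higher in BaP mice, 0 passed, and the median log2 fold change was 0.49 with a median pooled SD of 0.55. The r between a gene's deviations from its group means and the mean deviation of the listed genes, over the 8 mice, had a median of 0.938 and exceeded 0.9 in 16. The r of the other lists is the same measure. The brightest were *Tcn2*, transcobalamin, *Slc29a4*, a monoamine transporter, and *Car12*, a carbonic anhydrase, with log2 fold changes of 0.53, 0.24 and 0.51. At an unadjusted p of 0.05, 2 of the 24 passed, beside 8.77% of all probes. They were *Slc12a2*, the sodium-potassium-chloride cotransporter, at 0.63 and *Stra6*, the retinol-binding protein receptor, at 0.57. The study itself picked *Cldn2* and *Sema3b* of this list from its RNA-sequencing, its arrays or both, so not necessarily from these arrays.

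Of the 36 genes, 7 are known to be made by other hippocampal cells as well, *Enpp2*, *Trpm3*, *Ace*, *Slc31a1*, *Cab39l*, *Vat1l* and *Sulf1*. In 6 of them with a value in every mouse, the median r with the list mean, of which they are part, was 0.967, and the median pooled SD of the 7 was 0.78. The order of the mice was not identical in each, since Control 2 was the lowest in *Ace* and lay below Control 4 in *Vat1l*.

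Markers of neighboring cells had a lower median r with the choroid plexus genes, but some also varied widely within groups. The median pooled SD was 0.44 for ependymal cilia genes and 0.47 for meningeal and stromal fibroblast genes, against 0.15 over all genes and 0.55 for the other choroid plexus genes. Ependymal cilia genes (9 of 12 tested, led by *Dynlrb2*, *Ccdc153* and *Rsph1*) had list means of 1.26 to 1.89 in Control and 1.31 to 2.55 in BaP mice and a median r of 0.553 with the choroid plexus genes. Of these 9, 7 were higher in BaP mice and 2 lower, 0 passed, and the median log2 fold change was 0.45, beside 0.49 for the other choroid plexus genes. Within that list BaP 1 was at 1.87, near the middle of the mice, while BaP 4 was at 1.31. Meningeal and stromal fibroblast genes (12 of 12 tested, led by *Dcn*, *Col1a2* and *Slc13a3*) had list means of -1.71 to -0.69 in Control and -1.81 to -0.71 in BaP mice, and 11 of 12 were lower in BaP mice (median log2 fold change -0.18, 0 passed). Their median r was 0.555, with BaP 1 and Control 4 lowest again. Whether these cells account for any of the choroid plexus values was not tested.

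Endothelial genes (12 tested, led by *Ly6c1*, *Flt1* and *Cldn5*) had a median r of 0.591, and a median pooled SD of 0.17. That SD was 0.40 for thalamus and habenula, 0.28 for hippocampal neurons, 0.18 for astrocytes and for erythroid genes, 0.16 for oligodendrocytes and 0.12 for microglia. Of the 12 endothelial genes, 8 were higher and 4 lower in BaP mice, and 0 passed. The median r was -0.105 for hippocampal neurons, 0.323 for thalamus and habenula, 0.471 for oligodendrocytes, 0.417 for astrocytes and -0.0569 for microglia. Erythroid genes (4 of 5 tested, led by *Hba-a1*, *Hbb-bs* and *Alas2*) had a median r of 0.293. The groups had no overlap in those 3, and they overlapped in *Slc4a1*, the red cell anion exchanger (log2 fold change -0.09, adjusted p = 0.742). Their list means were 3.17 to 3.38 in Control and 2.14 to 2.40 in BaP mice, BaP 1 included, and *Hbb-bs* (log2 fold change -1.90, adjusted p = 0.00233), and *Alas2*, the erythroid heme synthesis enzyme (-1.05, adjusted p = 0.0444), fell past the threshold.

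**Figure D5:**
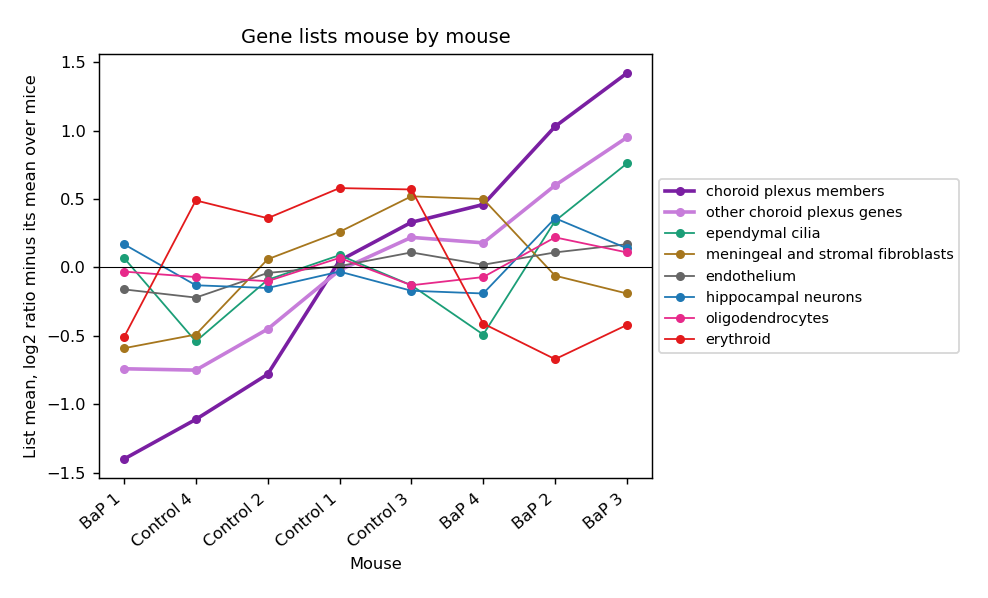
Mean log2 ratio of each gene list in each mouse, as the difference from its mean over the 8 mice, with mice ordered by the choroid plexus genes. The choroid plexus lists climb from BaP 1 to BaP 3, the erythroid mean is lower in every BaP mouse than in every Control mouse, and the neuron and oligodendrocyte lists stay within 0.36 of their mean.

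Genes outside the list with the most similar pattern were sought among 396 named genes with a pooled SD of at least 0.5. Of these, 85 had an r over 0.9 with the mean deviation of the listed genes over 8 mice. The nearest was *Pqlc3*, a PQ-loop repeat protein, at r = 0.9996, with log2 ratios of -2.85, -3.70, -2.58 and -4.05 in Control and -4.02, -1.64, -1.19 and -2.21 in BaP mice. It was followed by *C1qtnf5* (0.9961), *Sowahc* (0.9949), *Slc16a8*, a monocarboxylate transporter (0.9931), and *Lgals3bp*, a galectin-3-binding protein (0.9919). The tight junction protein *Cldn2* (0.9918), *Prr32* (0.9914), the zinc importer *Slc39a4* (0.9899), *Ins1*, an insulin gene (0.9897), and the cation channel *Trpv4* (0.9887) came next. *C1qtnf5* shares its locus with *Mfrp*, the listed gene without a named probe. Over all 14872 genes with values in every mouse, the listed genes included, 377 had an r over 0.9 and 52 under -0.9.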

How the data were processed

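The authors deposited Agilent Feature Extraction files with the intensity of each spot in Cy5 and Cy3, its background and marks for outlier spots, and a table of log2 ratios, described in the methods as LOWESS-normalized. Spot medians were used. In limma 3.58.1 (R 4.3.3), background was corrected with normexp (offset 50), control spots were left out, spots marked as outliers were dropped, loess was applied to the log2 ratios of each array, and replicate spots were averaged. The 32598 of 55681 probes that exceeded background clearly in Cy5 on 4 or more of the 8 arrays were tested with lmFit and eBayes and Benjamini-Hochberg adjustment. Of 27752 probes with a RefSeq accession, 27220 were named (98.1%) through a GRCm38.p6 gene table, used for names and promoters only. Python 3.11.15, pandas 2.3.3, numpy 2.4.6 and scipy 1.17.1 made the summaries. The deposited log2 ratios correlated with the ratios made here at 0.996 to 0.997 per array, in the same direction, with medians of -0.0457 to -0.0343. The number of arrays limits the precision. The fit was tested on simulated data for BaP against Control (32598 probes, with each probe's own SD), where limma recovered 92 of 100 probes changed by 1 log2 unit and 100 of 100 changed by 2, with 8 false calls; the SD of the changed probes was that of probes drawn at random, not that of the choroid plexus genes.

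The genes, the marker lists and their roles were chosen with earlier results of these data known. Full statistics are given for the 12 genes with the largest log2 fold change, and other genes were named for their role or after their values were seen. The 10 most similar genes were taken by Pearson r of deviations from group means. The alternatives covered background correction, normalization, channel, the deposited ratios, filters, outlier spots, blocks, test, probe choice, labels and each mouse left out. The values of each slide row alone were added after the data were seen.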

Additional observations from a re-analysis of the deposited data

Results flagged for a closer look

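In 3 of the 72 groups of 4 mice looked at (36 genes in 2 groups), BaP 1 lay far from the other BaP mice, with a gap that was a large share of the group's range by Dixon's criterion, where chance gives 3.6. In *Ttr* the gap was 0.898 of the range, with a log2 ratio of 5.92 in BaP 1 and 7.57 to 7.75 in the others. In *Folr1* it was also 0.898, with 0.14 in BaP 1 and 2.88 to 3.19 in the others. In *Slc13a4* it was 0.939, with 3.37 in BaP 1 and 5.41 to 5.54 in the others. All 3 genes were among those whose reference channel moved with the sample channel, and the 36 genes are correlated over the same mice.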

How the results depend on the processing

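Across every alternative 0 genes passed the adjusted threshold. The direction of all 36 genes (31 under the filter on all 8 arrays) held under the alternatives for background, normalization, the deposited ratios, Cy5 alone, filters, outlier spots, test and probe choice, with median log2 fold changes of 0.80 to 0.92. Median centring in place of loess gave 7 of 36 genes at an unadjusted p of 0.05, beside 18.6% of all probes under that setting (8.77% with loess), and a lowest adjusted p of 0.223. Replicate numbers did not pair the mice (r of deviations -0.354, 0.0313, -0.00715 and -0.00651, and 0 of 8 mice correlated best with their own number). With the replicate number as a block, 0 genes passed, 36 were higher and the median was 0.80; the slide row as a block also gave 0.80.

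With each mouse left out in turn, 35 to 36 genes were higher and the median log2 fold change was 0.41 to 1.43. The median pooled SD was 0.65 to 1.08 and the number of genes without overlap 0 to 26. The extremes of 0.65, 1.43 and 26 came without BaP 1, and the 0.41 without BaP 3. Without BaP 1, 5.22% of all probes were higher without overlap. *Ttr* had log2 fold changes of 0.47 without BaP 1 and turned to -0.08 without BaP 2, -0.09 without BaP 3, -0.14 without BaP 4, -0.04 without Control 2 and -0.07 without Control 4. In the 4 mice with agreeing labels, which are the first slide row, 5 genes turned (*Ttr* -0.35, *Folr1* -0.07, *Aqp1* -0.03, *Slc13a4* -0.23 and *Sostdc1* -0.39). The second row alone had 28 genes without overlap, beside 16.2% of all probes higher without overlap in that row. The causes of these changes were not tested.

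With groups by source name, 0 genes were higher and the median log2 fold change was -0.55, which follows from the exchange of 4 labels. The values were *Kcnj13* -1.19, *Sostdc1* -1.12, *Kcne2* -1.09, *Enpp2* -1.05, *Steap1* -1.02, *Aqp1* -0.86, *Sulf1* -0.75, *Rdh5* -0.72, *Tmem72* -0.71, *Slc4a5* -0.70, *Folr1* -0.67, *Slc13a4* -0.65, *Lbp* -0.64, *Prlr* -0.63, *Otx2* -0.61, *Kl* -0.58, *Calml4* -0.58, *Wdr86* -0.57, *Slco1a5* -0.53, *Wfdc2* -0.51, *Slc31a1* -0.48, *Trpm3* -0.48, *F5* -0.45, *Abca4* -0.42, *Ttr* -0.39, *Vat1l* -0.34, *Lmx1a* -0.33, *Cdh3* -0.31, *Col8a1* -0.30, *Msx1* -0.30, *Clic6* -0.28, *Cab39l* -0.26, *Krt18* -0.23, *Ace* -0.10, *Krt8* -0.05, *Car14* -0.02.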
